A study of Mus musculus with 4 samples.

Results

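Pmvk, Hmgcs1, Sqle, Dhcr7, Lss, Fdft1 and Idi1 encode enzymes of the pathway that builds cholesterol, and their RNA levels were compared in the brains of 4 groups of mice. They were taken by gene name, so the 7 genes with 36 transcripts are set against 45215 genes with 128603 transcripts in all (the transcripts include those under 200 bases, the genes do not). None of the 7 is an uptake gene, although cholesterol uptake belongs to the name of the set, so uptake receptors are described with the other genes of the pathway. The groups were F1r (CAST/EiJ x C57BL/6), F1i (C57BL/6 x CAST/EiJ), CAST (CAST/EiJ, an inbred strain derived from wild Mus musculus castaneus) and B6 (C57BL/6, the common laboratory strain), all labelled wild type. The labels do not say which parent of each hybrid was the dam, and age is not given in the sources used here. For each group, left hemispheres of 5 mice went into a single RNA pool and 1 library. No value therefore has a replicate error, no test was possible, and every difference is one between single pools.

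Cholesterol is made from acetyl units through mevalonate, isoprenoid units, squalene and lanosterol. The brain makes nearly all of its own cholesterol, because lipoproteins of the blood do not cross the blood-brain barrier, and much of it ends in myelin, the membrane that oligodendrocytes wrap around axons. In mammals the genes of the pathway are switched together by SREBP-2, a membrane-bound transcription factor that SCAP carries to its activating proteases when sterols are low and that INSIG proteins hold back when sterols are high.

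Levels are FPKM, fragments scaled to transcript length and to the mapped fragments of the library, summed over the transcripts of a gene. Differences are log2(FPKM + 1) of one group minus the other, which understates the change of low genes, and a gene was called when it was at least 2-fold apart. Genes with a mean of at least 1 FPKM over the 4 libraries were compared, which left 13768, and all 7 members passed. Relative to B6, the sequencing depth estimated from the FPKM worth of 1 fragment was 0.715 in F1r, 0.795 in F1i and 0.709 in CAST. The neuronal markers summed to 1069 to 1255 FPKM in the 4 libraries. Of the liver list, Alb stayed at or below 0.272 FPKM, Apoa1 at or below 0.448 and Serpina1a at or below 0.0206. Ttr, listed for both liver and choroid plexus, was at 381 to 636 FPKM.

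Promoter letters are shown for 3 of the genes because SREBP-2 is known to act at sterol regulatory elements beside NF-Y and Sp1 boxes. RefSeq windows on GRCm38.p6 (250 bases before to 50 after an annotated start) were at hand for 5 members, 8 windows in all. Capitals mark the motifs searched on both strands, TCACNCCAC for the sterol regulatory element, CCAAT for NF-Y and GGGCGG for Sp1. Only the bases before the first annotated exon of the gene are printed, 5′ to 3′ on the plus strand. The lines give Hmgcs1 at chr13:119690101-119690378, Lss at chr10:76531355-76531587 and Pmvk at chr3:89454291-89454540.
Hmgcs1: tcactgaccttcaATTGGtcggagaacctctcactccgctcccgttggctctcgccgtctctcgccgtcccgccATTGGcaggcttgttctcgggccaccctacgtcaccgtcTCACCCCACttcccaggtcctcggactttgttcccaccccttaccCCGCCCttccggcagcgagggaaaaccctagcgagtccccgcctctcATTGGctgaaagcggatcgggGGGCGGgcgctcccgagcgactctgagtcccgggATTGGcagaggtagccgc
Lss: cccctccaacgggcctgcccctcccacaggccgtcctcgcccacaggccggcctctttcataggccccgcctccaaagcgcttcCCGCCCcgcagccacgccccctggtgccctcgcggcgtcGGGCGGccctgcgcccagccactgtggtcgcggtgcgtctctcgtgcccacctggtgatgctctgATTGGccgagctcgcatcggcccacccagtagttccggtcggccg
Pmvk: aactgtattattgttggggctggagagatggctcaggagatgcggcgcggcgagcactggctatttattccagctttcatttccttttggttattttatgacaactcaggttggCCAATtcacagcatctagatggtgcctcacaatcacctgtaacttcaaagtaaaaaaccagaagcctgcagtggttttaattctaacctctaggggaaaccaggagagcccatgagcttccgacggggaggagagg
The sterol regulatory element stood in the Hmgcs1 window and in none of the other 7 windows. The Hmgcs1 window held 4 NF-Y and 3 Sp1 boxes, 1 Sp1 box of them beyond the printed bases, and the Lss window held 1 NF-Y and 2 Sp1 boxes. The Idi1 window held 2 NF-Y and 1 Sp1 box, and of the 3 Dhcr7 windows 1 held 2 NF-Y and 3 Sp1 boxes, 1 held a single Sp1 box and 1 held none. An NF-Y box was thus found for 5 of 5 members and an Sp1 box for 4 of 5, against 41.1% and 38.2% of all genes in the table. These counts take whole windows. All Idi1 boxes lay past the 145 bases before its first exon, and the Dhcr7 window with NF-Y boxes was exonic in all 300 bases. Before the first exon, an NF-Y box stood only in the Hmgcs1, Lss and Pmvk windows. Among all 32851 windows of the table, 1.24% held the sterol regulatory element, 37.4% an NF-Y box and 35.7% an Sp1 box. The printed Pmvk window lies before the start of Pmvk-204, a transcript listed at 0 FPKM in all 4 libraries; the window at the second Pmvk start lies downstream of where the main transcript begins and held none of the motifs. These matches describe letters, not binding.

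Hmgcs1 was the most abundant member, followed by Fdft1 and Sqle, and these held nearly level across the 4 libraries. Hmgcs1, whose enzyme makes HMG-CoA at the entry of the pathway, was at 76.3 FPKM in F1r, 77.6 in F1i, 84.1 in CAST and 87.8 in B6. Both hybrids were below both strains, and the highest library was 1.15-fold above the lowest. Fdft1, the squalene synthase that commits isoprenoids to sterols, was at 20.9 FPKM in F1r, 22.7 in F1i, 20.8 in CAST and 22.1 in B6. It varied least of the 7, 1.09-fold from the lowest to the highest library. Sqle, the squalene epoxidase, was at 17.5 FPKM in F1r, 18.6 in F1i, 17.4 in CAST and 19.98 in B6, a range of 1.15-fold. By the ranges over the libraries, Hmgcs1 stood apart from Fdft1 and Fdft1 from Sqle, while each lower neighbour in the order Sqle, Pmvk, Idi1, Dhcr7 and Lss overlapped with the next.

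**Figure D1:**
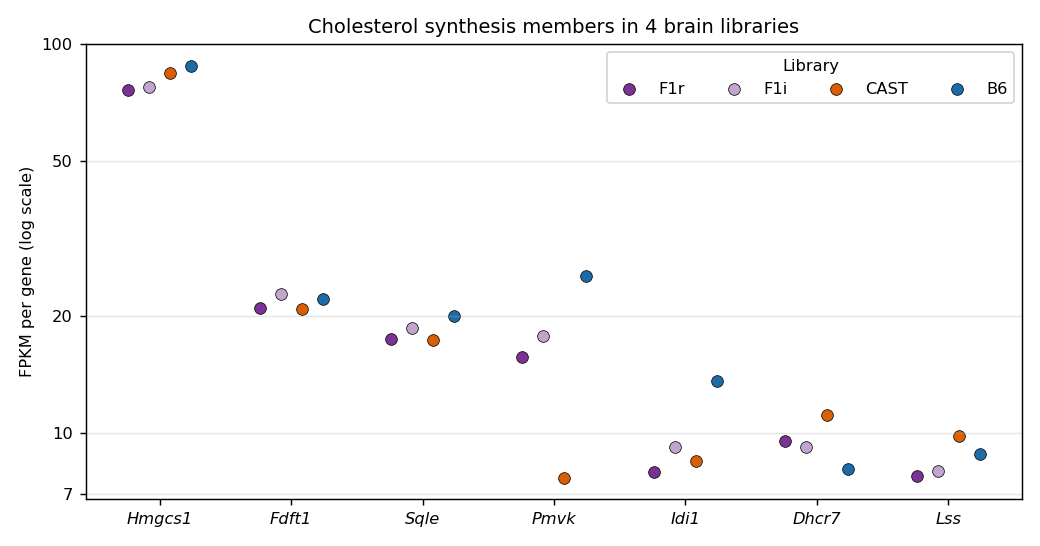
FPKM per gene (log axis) of the 7 members, ordered by mean level, in the F1r, F1i, CAST and B6 libraries; each point is 1 library of pooled RNA, so there are no error bars. Pmvk spans 7.66 FPKM in CAST to 25.3 in B6 with both hybrids between, whereas Hmgcs1, Fdft1 and Sqle stay within 1.15-fold.

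Pmvk had by far the widest spread. This gene encodes phosphomevalonate kinase, which adds the second phosphate to mevalonate. Its level was 15.7 FPKM in F1r, 17.8 in F1i, 7.66 in CAST and 25.3 in B6. The CAST library was the lowest and B6 the highest, 3.30-fold apart, and the hybrids lay close together between them. On the log2(FPKM + 1) scale CAST minus B6 was -1.60, lower than in all but 0.697% of the genes compared. In the estimated fragments these levels came from about 581 in F1r, 727 in F1i, 281 in CAST and 1310 in B6, and no interval is given because the tables hold no counts. Counted as the fraction of the way from the B6 level to the CAST level, F1r stood at 0.54 and F1i at 0.43 by FPKM, and at 0.41 and 0.30 on the log2 scale.

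Nearly all of the Pmvk level was one transcript. Pmvk-201 has 5 exons on the plus strand of chromosome 3 (89459118 to 89469013, GRCm38) and was at 15.04 FPKM in F1r, 17.2 in F1i, 7.40 in CAST and 25.1 in B6. It carried 95.8% of the gene's FPKM in F1r, 96.9% in F1i, 96.6% in CAST and 99.1% in B6, a range of 3.31 percentage points. The strain difference in the gene's summed FPKM was thus nearly all in the FPKM of this transcript. Whether reads of CAST aligned to the mouse reference as well as those of B6 was not tested. None of the gene's 1706 31-base words occurs in the annotated transcripts of another gene, and no other gene of the tables overlaps its span. Within 250 kb on either side, 20 other genes were compared, and 0 of them were at least 2-fold apart between CAST and B6, with differences from -0.68 to 0.32. Over all genes 5.12% were that far apart, a share at which 20 genes can hold none. Among 12293 protein-coding genes, the 3 with the profile over the 4 libraries nearest to that of Pmvk were Rpl36, Rps15 and Tuba1a, at Euclidean distances of 0.04, 0.11 and 0.13 between centred log2(FPKM + 1) values. Shared 31-base words made up 94.1% of Rpl36, 49.7% of Rps15 and 78.6% of Tuba1a, unlike Pmvk, so the levels of these 3 are uncertain. Over only 4 libraries, such a likeness is a description. For the median profile of the other 6 members, the nearest were Tspan11, Manea and Fbxo9, at distances of 0.0116, 0.0165 and 0.0177.

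Idi1, the isomerase that interconverts the C5 isoprenoid units, came next in spread. It was at 7.96 FPKM in F1r, 9.21 in F1i, 8.51 in CAST and 13.6 in B6. The B6 library stood above the rest, and the other three lay close together, so the hybrids were near CAST and not midway. CAST minus B6 was -0.62 and the mean of the hybrids minus the mean of the strains was -0.33, the lowest of the 7, and neither passed the 2-fold rule. Of its 31-base words 27.1% recur in other genes, 18.4% in the pseudogene Gm13502 alone, which was at 0.927 FPKM in F1r, 0.969 in F1i, 0.538 in CAST and 0.681 in B6. Reads could be split between these genes, and the Idi1 values are uncertain to that extent.

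Idi1 was also the member whose transcripts were shared out least evenly between libraries. Idi1-203, with 737 bases on chromosome 13 (8885943 to 8890558), was at 4.08 FPKM in F1r, 3.58 in F1i, 3.32 in CAST and 7.89 in B6. Taken alone it was 2-fold lower in CAST than in B6 (-1.04), so the call for Idi1 depends on whether transcripts are summed. The longer Idi1-201, with 3027 bases, was at 3.36 FPKM in F1r, 3.58 in F1i, 2.80 in CAST and 4.43 in B6. Idi1-204 held 3.78% of the gene in F1r, 22.3% in F1i, 25.0% in CAST and 8.33% in B6. F1r and B6 were low and F1i and CAST high for this transcript, 21.2 percentage points from end to end. The F1r value rests on only about 5.43 estimated fragments. It was the 1 member of the 5 with several transcripts that reached 20 points between any pair of libraries, a step that 24.8% of 10664 such genes reached. Between CAST and B6 0 of 5 members reached it, against 15% of such genes, and between F1r and F1i 0 of 5, against 8.82%.

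**Figure D2:**
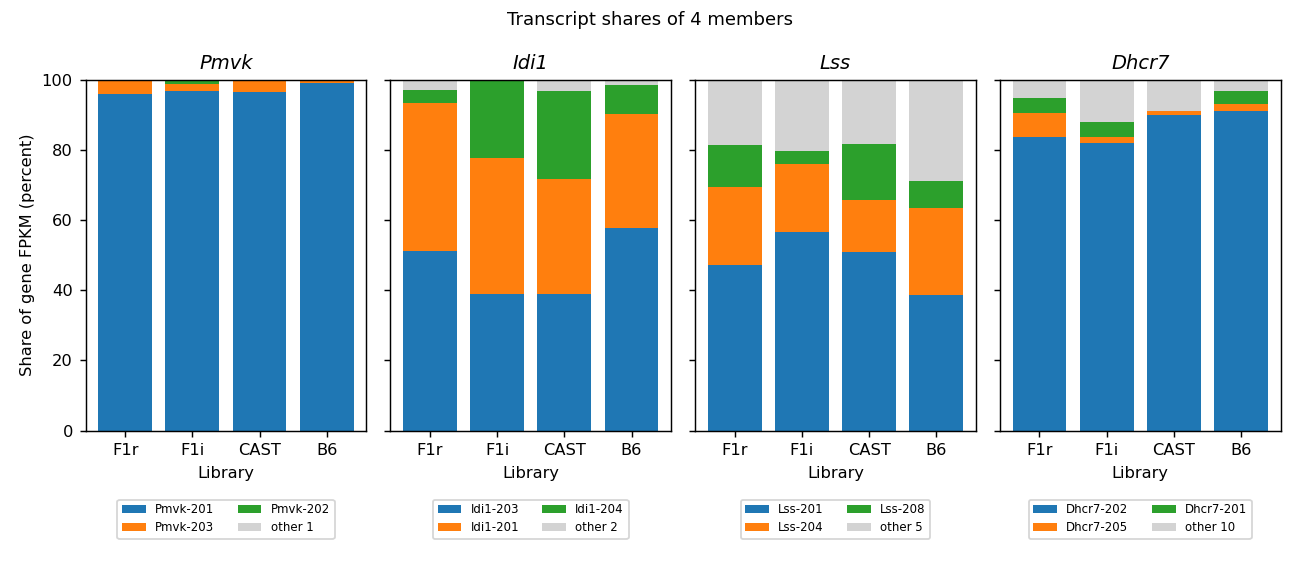
Share of a gene's FPKM (percent) carried by each transcript of Pmvk, Idi1, Lss and Dhcr7 in the F1r, F1i, CAST and B6 libraries; the 3 transcripts with the highest mean are named and the rest are grey. Pmvk-201 holds 95.8% or more of Pmvk in every library, while Idi1-204 ranges from 3.78% in F1r to 25.0% in CAST.

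Dhcr7 and Lss were the members with higher values in CAST than in B6. Dhcr7 encodes the reductase of the last step, loss of which causes Smith-Lemli-Opitz syndrome in people, and was at 9.57 FPKM in F1r, 9.22 in F1i, 11.1 in CAST and 8.09 in B6. The hybrids lay between the strains, with CAST 1.38-fold above B6. Its main transcript Dhcr7-202 on chromosome 7 (143829626 to 143848410) carried 83.6% of the gene in F1r, 81.9% in F1i, 89.9% in CAST and 91.2% in B6. Lss, the cyclase that forms lanosterol, was at 7.75 FPKM in F1r, 8.001 in F1i, 9.82 in CAST and 8.82 in B6, with both hybrids below both strains. The longest protein-coding transcript, Lss-201, was at 3.66 FPKM in F1r, 4.54 in F1i, 4.99 in CAST and 3.42 in B6, and retained-intron forms made up most of the rest. Lss-202, a 352-base processed transcript, was listed at 0 in F1r, F1i and CAST and reached 1.02 FPKM in B6, 11.6% of Lss there. That B6 value rests on only about 15.6 estimated fragments. CAST minus B6 for Lss was 0.14 with all transcripts summed, 0.44 for Lss-201 alone and 0.56 for protein-coding transcripts alone, so its size depends on the transcripts counted. The protein-coding sum includes the 314-base Lss-208, which rests on about 15.2 estimated fragments in CAST and 9.51 in B6.

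The comparison of CAST with B6 asks how the strains differ. Of the 7 members, 1 was called, Pmvk, and it was lower in CAST; over all genes 2.27% were called lower and 2.85% higher, 5.12% in all. Among protein-coding genes alone 1.82% were called lower and 1.07% higher. By value 5 of 7 were lower in CAST, with a median difference of -0.08 against 0.04 over all genes; after rescaling every library to the same total, 2 of 7 were lower. Leaving Pmvk aside, the median of the other 6 members was -0.07.

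As deposited, the 15 other enzymes of the pathway were mostly lower in value in CAST too. Of them 0 of 15 were called, beside 5.12% of all genes, a share at which 15 genes can hold none. Their median CAST minus B6 difference was -0.24, and 13 of 15 were lower in CAST, against 44.6% of all genes. After rescaling every library to the same total, 7 of the 22 enzymes, members included, were lower. Hsd17b7, a sterol ketoreductase, was lowest, at 4.10 FPKM in F1r, 4.70 in F1i, 3.01 in CAST and 6.34 in B6 (-0.87). Its hybrids lay between the strains, as those of Pmvk did, and with a pseudocount of 0.1 it was called (-1.05). Ebp, the sterol isomerase, was highest of the 15, at 11.8 FPKM in F1r, 14.5 in F1i, 14.7 in CAST and 11.3 in B6 (0.35). The direction was the opposite in the protein-coding transcripts of Ebp alone, for which CAST minus B6 was -0.25.

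All 22 enzymes together summed to 390.0 FPKM in F1r, 406 in F1i, 389 in CAST and 459.8 in B6. B6 was the highest library for 17 of 22, against 30.0% of all genes. In CAST 18 of 22 were lower than in B6, whereas a difference below 0 was found in 44.6% of all genes. These counts depend on the scaling: when every library was rescaled to the same total, 7 of 22 were lower in CAST and B6 was highest for 6 of 22, against 8.94% of all genes, while the median of all genes moved to 0.32. Counted against that median, a setting added after the data were seen, 18 of 22 were lower. Pmvk was called under each scaling tried.

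**Figure D3:**
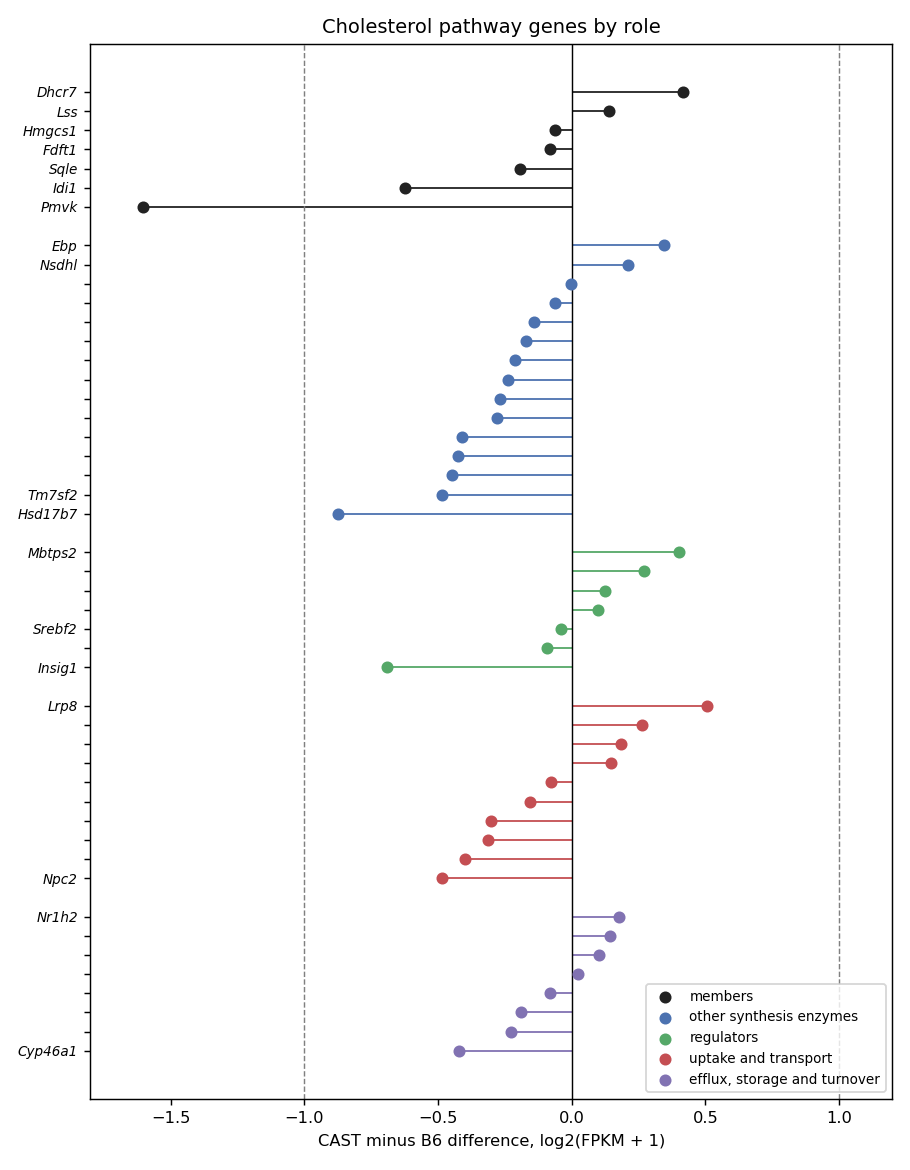
CAST minus B6 difference in log2(FPKM + 1) for the 47 pathway genes with a mean of at least 1 FPKM, by role; each point is 1 gene, those named in the text are labelled, and dashed lines mark 2-fold. Pmvk at -1.60 is the one gene beyond a dashed line, and 18 of 22 synthesis enzymes lie left of 0 (7 of 22 after rescaling to the same total).

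Oligodendrocyte markers also had lower values in CAST than in B6. This held for 8 of 8, of which 3 passed the 2-fold rule (Mobp, Mal and Cldn11), and their sum was 1660 FPKM in F1r, 1811 in F1i, 1318 in CAST and 2192 in B6. Over all genes 2.27% were called lower and 44.6% were below 0. Choroid plexus markers were lower in CAST for 3 of 3, with 1 called (Kl, -1.09), and summed to 536 FPKM in F1r, 643 in F1i, 386 in CAST and 631 in B6. Microglial markers summed to 65.4 FPKM in F1r, 76.7 in F1i, 64.2 in CAST and 83.9 in B6, with 4 of 5 lower in CAST and 0 called. The median CAST minus B6 difference was -0.29 for red cell markers, -0.19 for neuronal, 0.02 for astrocyte and 0.11 for endothelial markers, with 0 called in these lists. The markers were not counted again under other scalings in any comparison. Rescaling to the same total moved the CAST minus B6 median of all genes to 0.32, so the marker counts and calls may depend on it. In pooled tissue, fewer cells of a type and less RNA per cell cannot be told apart, and the part of these cell types in the values of the enzymes was not tested.

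Regulators, uptake and efflux genes held no call between CAST and B6, with 0 of 7, 0 of 10 and 0 of 8 past the rule, beside 5.12% of all genes, a share at which lists this short can hold none. Insig1, which encodes a brake on SREBP and is itself an SREBP target, was lowest among the regulators, at 27.1 FPKM in F1r, 29.05 in F1i, 23.9 in CAST and 39.2 in B6 (-0.69). B6 stood above the other libraries here, as it did for Idi1. Mbtps2, a protease that frees SREBP, was highest (0.40), though 31.3% of its 31-base words recur, mostly in Yy2, and its level is uncertain. Srebf2, which encodes SREBP-2, was at 21.9 FPKM in F1r, 20.9 in F1i, 19.7 in CAST and 20.2 in B6. The regulator median was 0.10. For uptake and transport inside the cell the median was -0.12, from Npc2, the lysosomal sterol carrier (14.4 FPKM in F1r, 14.6 in F1i, 13.4 in CAST and 19.1 in B6), to Lrp8, a lipoprotein receptor that also receives reelin (13.9, 11.5, 13.4 and 9.13 FPKM in the same order). Among efflux, storage and turnover genes, with a median of -0.03, Cyp46a1, the neuronal hydroxylase through which the brain sheds cholesterol, was lowest at 40.9 FPKM in F1r, 38.8 in F1i, 31.7 in CAST and 42.8 in B6. Nr1h2, the sterol-sensing receptor LXR-beta, was highest (0.18).

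F1r and F1i come from the same strains crossed in opposite directions, so setting them against each other asks about the direction of the cross, with the variation between pools in the same difference. No member was called (0 of 7), against 0.508% of all genes (0.24% higher and 0.269% lower in F1r). Differences ran from -0.19 in Idi1 to 0.05 in Dhcr7 with a median of -0.08, and 6 of 7 members were lower in value in F1r, against 41.9% of all genes; after rescaling to the same total, 0 of 7 were, while relative to the median of all genes, a setting added after the data were seen, 6 of 7 were. In the same comparison red cell markers were lower in F1r for 3 of 3 (median -0.68) and choroid plexus markers for 3 of 3 (-0.18). Microglial markers were lower for 5 of 5 (-0.24), oligodendrocyte markers for 6 of 8 (-0.11) and astrocyte markers for 4 of 6 (-0.04). Neuronal markers were higher for 6 of 6 (0.11) and endothelial markers for 3 of 4 (0.11). Rescaling to the same total moved the F1r minus F1i median of all genes to 0.25, so these marker directions may depend on it. None of these markers was called, and their part in the members' values was not tested. For scale, the standard deviation of F1r minus F1i over all genes was 0.28. Tm7sf2, a sterol reductase, differed most among the 22 enzymes, at 12.3 FPKM in F1r, 9.21 in F1i, 9.38 in CAST and 13.5 in B6 (0.38), with 13.3% of its 31-base words shared, mostly with Vps51. The X-linked sterol dehydrogenase gene Nsdhl was lowest, at 6.88 FPKM in F1r, 8.79 in F1i, 7.32 in CAST and 6.18 in B6 (-0.31). The regulator Mbtps2, also X-linked, was higher in F1r than in F1i (0.08).

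**Figure D4:**
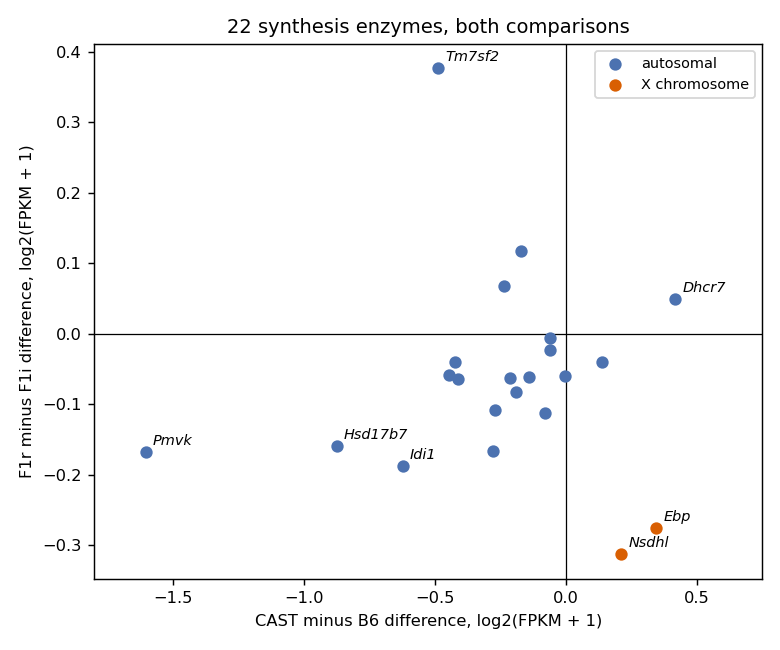
F1r minus F1i against CAST minus B6, both in log2(FPKM + 1), for the 22 synthesis enzymes; X-linked genes are orange and each point is 1 gene. Pmvk lies far left at -1.60 with a reciprocal difference of -0.17. Ebp and Nsdhl on the X chromosome lie lower right, as does autosomal Lss (0.14 for CAST minus B6, -0.04 for F1r minus F1i). Ebp does not lie there when its protein-coding transcripts alone are used (-0.25 and 0.01 in the same order).

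Both hybrids were also set against both strains to ask whether the hybrid levels were midway. The mean of F1r and F1i minus the mean of CAST and B6 called 0 of 7 members, against 0.167% of all genes (0.0508% higher and 0.116% lower in the hybrids), and 0 of 40 other pathway genes. Pmvk came to 16.7 FPKM in the hybrids and 16.5 in the strains (0.02), but the difference was 0.23 when log2 values were averaged in place of FPKM. Idi1 averaged 8.59 FPKM in the hybrids against 11.1 in the strains. On the log2 scale Lss stood at -0.22, or -0.03 for Lss-201 alone, and Hmgcs1 at -0.16. By value 5 of 7 members were lower in the hybrids, against 52.6% of all genes, with a median of -0.05 beside -0.01 over all genes. Of the 22 enzymes 14 were lower. These counts depend on the scaling: after rescaling to the same total, 6 of 7 members and 20 of 22 enzymes were lower, while the median of all genes was -0.03. The same 4 libraries enter all 3 comparisons, so they are not independent.

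Sequence shared with other genes bears on some of these levels. Of their 31-base words, Sqle shares 0.969%, Dhcr7 2.76% and Lss 3.29%, while Hmgcs1 shares 13.1%, mostly with Gm48342, and Fdft1 31.9%. Most of the Fdft1 figure comes from Ctsb, a cathepsin gene that runs on the other strand into the end of Fdft1 on chromosome 14 and was at 69.4 to 77.1 FPKM, and 14.3% is shared with Gm6781, at 0.313 to 0.699 FPKM. Whether reads were counted by strand is not given in the sources used here, so reads of the 2 genes may not have been told apart there. Near Hmgcs1 on chromosome 13, 3 of 6 genes within 250 kb were at least 2-fold lower in CAST, against 2.27% of all genes. Among them was Tmem267 (1.53 FPKM in F1r, 1.82 in F1i, 0.104 in CAST and 2.78 in B6), whose span overlaps that of another of the 3. Hmgcs1 itself was not 2-fold lower (-0.06). Around the remaining members 0 neighbours were called.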

How the data were processed

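RNA of brain was measured in 4 groups of mice, 1 library each, pooled from 5 left hemispheres and made with a strand-specific kit, per the labels' protocols; the series design speaks of whole brain. The authors deposited FPKM per transcript. Cufflinks 2.2.1 and Cuffdiff, HISAT2, Trimmomatic 0.36 and bcl2fastq 2.20 are named in the submitters' processing notes, with build mm9, but 97.2% of the transcripts found in GENCODE M21 had its GRCm38 start and end, so coordinates are given as GRCm38. Transcripts of at least 200 bases were summed per gene. The fragment step came from single-transcript genes of at least 2500 bases. Shared sequence was the percent of a gene's 31-base words found in GENCODE M21 transcripts of other genes. The members and the lists were chosen with earlier results of these data known. Named genes were the members, pathway genes past the rule, the highest and lowest CAST minus B6 difference in each role, the nearest profiles, and genes sharing sequence or overlapping with a member; Srebf2, Tm7sf2, Nsdhl, Tmem267 and the markers were named after their values were seen. Alternatives changed the pseudocount, filter, scaling and transcripts used. Python 3.11.15, numpy 2.4.6, pandas 2.3.3 and matplotlib 3.10.9 were used. Of the steps, only the 2-fold call between CAST and B6 was tried on simulated data, with planted changes beyond 2-fold. The depth of each library is known only relative to B6.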

Additional observations from a re-analysis of the deposited data

How the results depend on the processing

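With 1 library per group, no alternative could measure the spread between mice, and low transcripts such as Idi1-204 in F1r rest on few fragments (about 5.43). Pmvk was called lower in CAST than in B6 under every alternative run, from -1.71 with a pseudocount of 0.1 to -1.19 after rescaling to the same total. That common total was below the deposited totals, 1.86e+06 FPKM in CAST and 2.36e+06 in B6. The pseudocount and the filter therefore weighed more under it, and 11983 genes passed. The count of members called was 2 when the highest transcript of each gene was used alone, since Idi1 was then called too, and otherwise 1. A pseudocount of 0.1 raised the calls among the other pathway genes to 1 (Hsd17b7), from 0. Rescaling to the same total moved the member median of CAST minus B6 to 0.24, because that rescaling moved all genes, and less their median it was -0.08. Under that rescaling Hmgcs1, Sqle and Fdft1 were higher in CAST (0.28, 0.13 and 0.24), and Pmvk higher in F1r than in F1i (0.08). With the highest transcript alone, Idi1 was higher in F1r than in F1i (0.15). The position of Pmvk between the strains became 0.41 in F1r and 0.30 in F1i on the log2 scale. No paired analysis was possible because each group holds 1 library. Median-ratio scaling, no filter, a mean of at least 5 FPKM, all transcript lengths, and protein-coding genes, and the settings added after the data were seen (differences less the median of all genes under either rescaling, protein-coding transcripts, and the mean of log2 values) left the counts of members called at 1, 0 and 0 in the comparisons they were run for. The hybrid minus strain difference of Pmvk was 0.23 with the mean of log2 values, and -0.0088 with its highest transcript.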
